A study of Homo sapiens with 6 samples.

Results

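TFAM and 40 other nuclear genes whose products transcribe, copy, supply or process mitochondrial DNA (mtDNA) and its RNA were followed through a TFAM knockdown. The members are listed by gene symbol and role; no measured value enters that rule, although results of these data were known when the list was drawn up. Each of the 41 was found once among the 60612 gene rows of the table. By role they comprised 9 genes of transcription, 13 of replication and maintenance, 4 of nucleotide supply, 9 of RNA processing and 6 of the FASTK family. The samples were 6 RNA sequencing libraries of SNU-368, labelled as a hepatocellular carcinoma line: 3 carried a control short hairpin RNA (shCtrl) and 3 a hairpin against TFAM (shTFAM). Both groups were therefore hairpin-carrying cultures of the same line, with no untreated parental group in the comparison. The series' design text counts them as separate cell lines, but does not say whether each was a clone or a pool or was transduced on its own. The p-values therefore reflect only how far these particular samples scatter, and that scatter may be technical. Replicate numbers follow the order of deposit and pair nothing across the groups.

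Human mtDNA is a small circle that encodes 13 respiratory chain and ATP synthase subunits with their rRNAs and tRNAs, while all the proteins that read, copy and mature it come from nuclear genes. TFAM bends and coats mtDNA and recruits the polymerase POLRMT together with TFB2M, which helps to open the promoter. Long transcripts are cut at their tRNAs, polyadenylated, stabilised by the LRPPRC and SLIRP complex and degraded by PNPT1 with SUPV3L1. The transcription factors NRF1 and NRF2 (an ETS-family factor made of GABPA and a GABPB subunit) are known for driving many of these nuclear genes, TFAM among them.

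Because many members share that textbook control, their promoters were read from the RefSeq promoter table (GRCh38.p14), which held 34 of the 41. In the 250 bases before the start site, 2 words were searched on both strands: GCGCNTGCG, the core of the NRF1 motif, and CCGGAAG, an ETS core. The NRF1 word was present in 8 of 34 member promoters (23.5%), against 7.09% of 27305 promoters and 13.9% of the 9428 promoters of genes tested here. The ETS word was present in 9 of 34 (26.5%), against 8.82% and 16.9%. Matches to the NRF1 word overlap where both strands hold it, so promoters and not matches were counted. Among the 9 member promoters whose genes fell in shTFAM, as described below, 4 held the NRF1 word (TFAM, TFB2M, LIG3, EXOG) and 1 the ETS word (SLIRP). The other fallen members, MTERF3 and TOP1MT, had no promoter among those held. Of the 25 whose genes were not called, 4 held the NRF1 word (POLRMT, TFB1M, POLG2, MTPAP) and 8 the ETS word. A match is a description of letters only, and no binding was measured.

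The promoters with an NRF1 word are shown 5′ to 3′ on the strand of their gene, because both fallen and uncalled members of the transcription machinery carry it. Capitals mark the matches to either word. Start sites are those of RefSeq and can differ from the deposited gene bounds. The bases shown for TFAM, EXOG and MTPAP lie partly or wholly inside those bounds. In the deposited rows TFAM and EXOG start at 58385345 and 38496127, and MTPAP, on the minus strand, starts at 30374441. TFB2M, TFB1M, POLRMT and LIG3 are given as the 150 bases before the start site (chr1:246566262-246566411, minus strand; chr6:155314485-155314634, minus; chr19:633538-633687, minus; chr17:34980362-34980511, plus). TFAM, EXOG, POLG2 and MTPAP are given as 30 bases around the word (chr10:58385337-58385366, plus; chr3:38496310-38496339, plus; chr17:64497055-64497084, minus; chr10:30349328-30349357, minus).
TFB2M: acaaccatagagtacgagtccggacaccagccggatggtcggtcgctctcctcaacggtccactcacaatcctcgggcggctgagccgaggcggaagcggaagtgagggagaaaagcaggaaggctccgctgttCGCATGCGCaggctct
TFB1M: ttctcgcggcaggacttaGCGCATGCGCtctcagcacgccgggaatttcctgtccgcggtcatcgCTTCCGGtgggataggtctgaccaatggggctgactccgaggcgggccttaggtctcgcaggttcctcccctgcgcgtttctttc
POLRMT: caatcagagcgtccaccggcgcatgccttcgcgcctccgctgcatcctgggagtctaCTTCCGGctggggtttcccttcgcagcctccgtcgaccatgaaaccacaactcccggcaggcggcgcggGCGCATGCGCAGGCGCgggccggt
LIG3: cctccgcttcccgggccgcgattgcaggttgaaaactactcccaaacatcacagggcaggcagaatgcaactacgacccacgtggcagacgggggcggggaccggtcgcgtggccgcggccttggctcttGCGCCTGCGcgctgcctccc
TFAM: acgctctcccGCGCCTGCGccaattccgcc
EXOG: ggcgggggccggcatgcgcGCGCATGCGCc
POLG2: cacgctcacctccgttGCGCCTGCGccgtg
MTPAP: tcccccccgaCGCATGCGCgaaaacgcgct

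Libraries held 43286024 to 61058282 counts; shTFAM 3, the deepest, had the lowest shTFAM value for 23 of the 41 members, scaled for depth. In the check of the labelled cell type, hepatocyte markers were mostly missing: of 16, 10 were at 0 in every library (ALB, AFP, APOA1, APOA2, APOB, TTR, FGA, FGB, FGG and GPC3), which allows at most 0.0491 to 0.0693 CPM by counting error alone. CPM are counts scaled by library size and composition. Only the keratins KRT8 and KRT18 and a low HNF4A stood above 1 CPM among them, and the summed level was 1125 to 1346 CPM in shCtrl and 1512 to 1641 CPM in shTFAM. KRT8 rose (log2 fold change, shTFAM against shCtrl, 0.61) and KRT18 was not called (-0.07). Fibroblast markers summed to 245 to 385 CPM in shCtrl and 381 to 456 CPM in shTFAM, with COL1A2 at 0 in all 6 libraries. Among them DCN (2.95) and PDGFRB (1.69) rose, while COL1A1 (0.09), LUM (1.17) and ACTA2 (-0.68) were not called. COL3A1 was too low to be tested. Leukocyte markers summed to 11.1 to 16.3 and 32.6 to 47.2 CPM with PTPRC, CD3E and LYZ at 0, nearly all of it CD68, which rose (1.43). Endothelial markers summed to 2.78 to 3.90 and 3.19 to 5.26 CPM, with KDR at 0. The part of these marker shifts in the results below was not tested, and in bulk RNA fewer cells of a kind and less RNA per cell cannot be told apart.

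Of the 41 members 11 fell in shTFAM, none rose, and most of the others had lower values that did not pass the test. All 41 passed the expression filter, a mean of at least 0.5 FPKM (fragments scaled by gene length and library size), the lowest being EXOG at 0.937 FPKM. With edgeR's quasi-likelihood test, 11 of 41 (26.8%) fell at an adjusted p under 0.05, against 6.59% of all 14708 tested rows that were lower at that threshold. Of the remainder, 0 rose, against 11.3% of all rows. The log2 fold change, shTFAM against shCtrl, was negative for 36 of 41 members with a median of -0.37, where the median of all rows was -0.02 and 51.4% were negative. All 3 shTFAM libraries lay below all 3 shCtrl libraries for 28 members (68.3%), against 20.1% of rows, and above them for DNA2 alone (2.44%), against 22.1% of rows. A further 11 members had negative values with an adjusted p between 0.05 and 0.1.

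**Figure D1:**
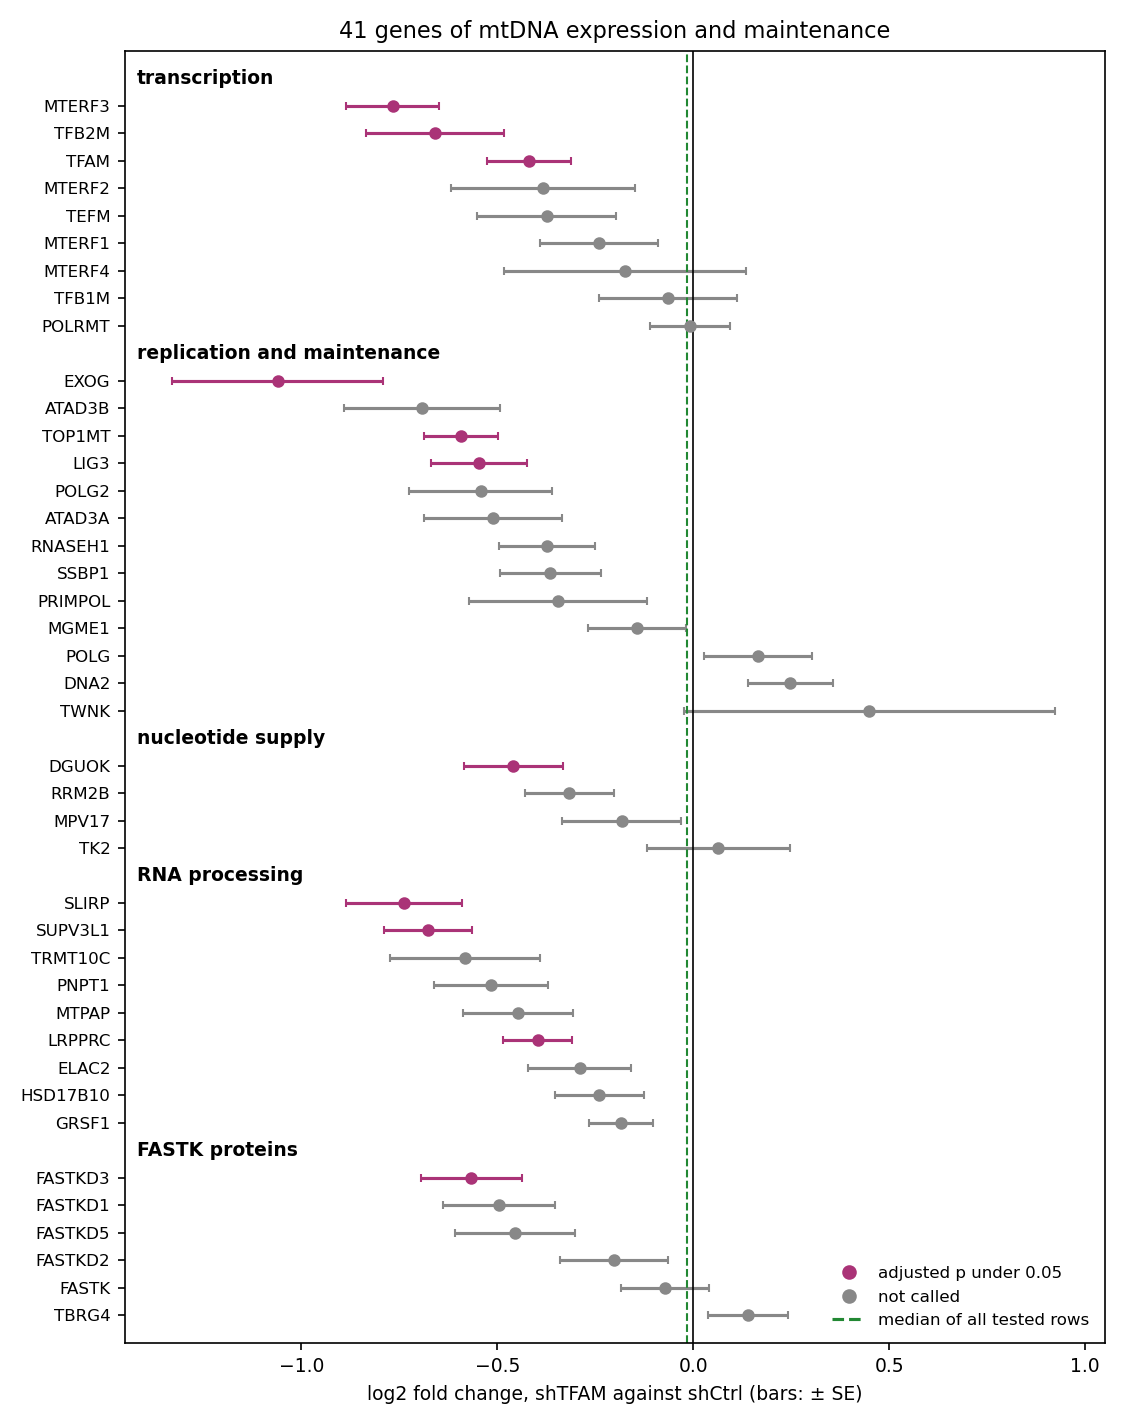
Log2 fold change of each of the 41 genes (points, horizontal axis) with its standard error (bars), from 3 shTFAM and 3 shCtrl libraries, grouped by role. The 11 called genes lie from -1.06 (EXOG) to -0.40 (LRPPRC), and only TWNK, DNA2, POLG, TBRG4 and TK2 lie to the right of 0.

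The shift had the same sign in every shTFAM library but differed in size. The median member stood 0.33, 0.34 and 0.47 log2 units under its shCtrl mean in shTFAM 1, 2 and 3, in that order a deviation of -0.33, -0.34 and -0.47. In shCtrl 1, 2 and 3 it deviated by -0.03, -0.07 and 0.10, and shCtrl 3 held the highest control value for 26 of the 41 members. The same quantity over all rows stayed between -0.0018 and 0.0068, which the scaling for composition largely sets in advance. Without both shCtrl 3 and shTFAM 3, the libraries at either end, the data gave a median member change of -0.26 and 6 fallen members (14.6%), against 4.57% of rows lower. Leaving out shTFAM 2 or shTFAM 3 left 3 fallen members (7.32%), against 2.53% and 2.72% of rows.

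Levels per gene length spanned almost 2 orders of magnitude. The most abundant member was HSD17B10 at 70.6 FPKM on average, followed by LRPPRC at 43.5 and the tRNA processing nuclease ELAC2 at 21.6 FPKM. The transcription initiation factors stood close together, TFB2M at 17.6, TFAM at 11.6 and POLRMT at 10.6 FPKM, while the elongation factor TEFM stood at 3.49 FPKM. MTERF4, MTPAP and PRIMPOL (1.36, 1.35 and 1.35 FPKM) were the lowest besides EXOG. The medians by role were 3.49 FPKM for transcription, 5.16 for replication and maintenance, 5.40 for nucleotide supply, 7.40 for the FASTK family and 16.5 for RNA processing.

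**Figure D2:**
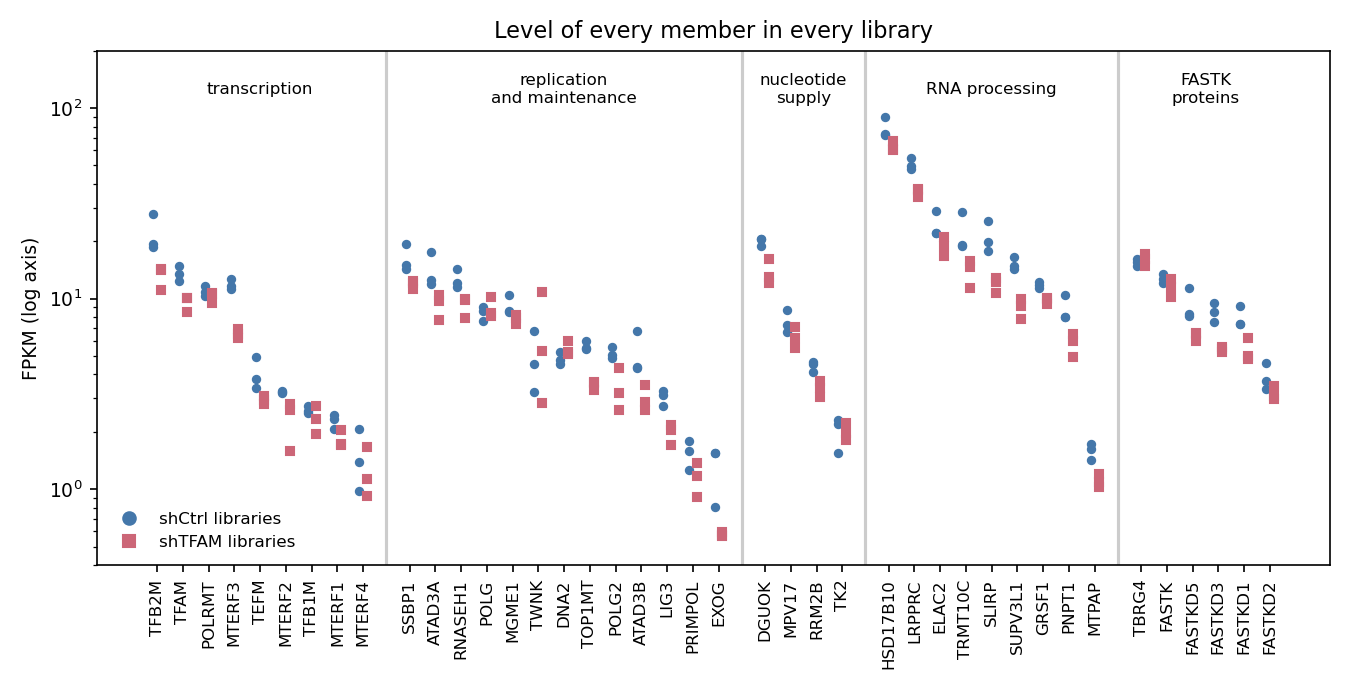
FPKM (log axis) of every member in each of 3 shCtrl (circles) and 3 shTFAM (squares) libraries, ordered by level within each role. RNA processing genes reach the highest levels, and the groups separate for all 9 of them but overlap on this scale for POLRMT, TFB1M and MTERF4 among the transcription genes.

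In the transcription group TFAM, TFB2M and MTERF3 fell, while the polymerase POLRMT was not called. Of its 9 genes 3 fell, against 6.59% of all tested rows, and all 9 values were negative, against 51.4%. The median log2 fold change was -0.37. TFAM (ENSG00000108064, hg38 chromosome 10, 58385345 to 58399220, plus strand), the hairpin's target, stood at 82.2, 76.2 and 89.6 CPM in shCtrl 1 to 3 and at 63.7, 65.0 and 56.7 CPM in shTFAM 1 to 3. The groups did not overlap, but the remaining level was well above 0 in every shTFAM library. The fall was 1.34-fold (log2 fold change -0.42, SE 0.107, edgeR adjusted p 0.0377). Of the other 10 fallen members, 9 had a more negative value and LRPPRC a less negative one.

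TFB2M (chromosome 1, 246540561 to 246566261, minus strand) stood at 38.5, 40.6 and 56.9 CPM in shCtrl and 30.4, 30.7 and 25.1 CPM in shTFAM. Its highest value was in shCtrl 3 and its lowest in shTFAM 3, and the groups did not overlap (log2 fold change -0.66, SE 0.176, edgeR adjusted p 0.0425). MTERF3, a member of the mitochondrial termination factor family that acts on transcription and ribosome assembly, stood at 26.2, 23.6 and 24.03 CPM in shCtrl and 14.9, 13.7 and 14.8 CPM in shTFAM. The groups lay far apart, a 1.70-fold fall (-0.77, SE 0.118, edgeR adjusted p 0.00817). The calls of TFAM and TFB2M ended without any 1 of the 6 libraries (edgeR adjusted p 0.0676 to 0.0948 and 0.0567 to 0.119), whereas that of MTERF3 held without each (0.0169 to 0.0365). With shCtrl 3 and shTFAM 3 both left out, TFAM changed by -0.30 and TFB2M by -0.37 on the log2 scale, and both calls ended, as they did with no expression filter.

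POLRMT, which makes the RNA and the primers for replication, stood at 68.1, 60.8 and 63.1 CPM in shCtrl and 63.9, 58.6 and 68.2 CPM in shTFAM (-0.01, SE 0.102, edgeR adjusted p 0.965), with overlapping groups. TFB1M, the relative of TFB2M that methylates mitochondrial rRNA, was not called either, at 12.4 ± 0.496 and 11.9 ± 2.30 CPM (SD, n = 3 each; -0.06). TEFM, which keeps the polymerase elongating, was lower in all 3 shTFAM libraries without passing the test (-0.37, edgeR adjusted p 0.183). Of the other MTERF proteins, MTERF1 (-0.24), MTERF2 (-0.38) and MTERF4 (-0.17) were not called. MTERF2 ranged from 13.4 to 13.9 CPM in shCtrl and had a single low library, shTFAM 1, at 6.90 CPM. MTERF4 is uncertain, since 51.0% of its exonic bases lie opposite SNED1 and no source used here states the strand setting of the counting. For MTERF2 11.6% lie opposite TMEM263, which had more counts (2506 against 590.5 per library on average) and rose (0.95, edgeR adjusted p 0.00648).

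Of 13 replication and maintenance genes, EXOG, LIG3 and TOP1MT fell, which trim, seal and relax mtDNA. The catalytic polymerase POLG and the helicase TWNK had positive values, and none of the 13 rose (median -0.37). Of all tested rows, 6.59% fell and 11.3% rose. TOP1MT, the mitochondrial topoisomerase, stood at 40.6, 40.96 and 44.2 CPM in shCtrl and 28.2, 28.1 and 27.1 CPM in shTFAM (-0.59, SE 0.0943, edgeR adjusted p 0.00896). Its groups lay far apart relative to their spread, and the call held without each single library (0.0205 to 0.0396). LIG3 (chromosome 17, 34980512 to 35009743, plus strand), the DNA ligase of mitochondria, stood at 49.0, 47.0 and 40.8 CPM against 33.6, 32.2 and 27.9 CPM (-0.55, SE 0.122, edgeR adjusted p 0.0252). EXOG (chromosome 3, 38496127 to 38542161, plus strand), a mitochondrial nuclease, stood at 9.97, 5.32 and 9.98 CPM against 3.93, 3.93 and 4.24 CPM (-1.06, SE 0.269, edgeR adjusted p 0.0373). The low control was shCtrl 2, which came close to the shTFAM range. Over the 6 fits with a library left out, LIG3 had an edgeR adjusted p of 0.0261 to 0.0836 and stayed called only without shCtrl 3 or shTFAM 1. EXOG ranged from 0.0209 to 0.103 and stayed called only without shCtrl 2; its call also ended with no expression filter and in each limma test. For LIG3, 29.1% of exonic bases lie opposite RFFL, which was not called (0.16).

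The subunits of the mtDNA polymerase had values of opposite sign, neither called. POLG stood at 80.0, 78.1 and 68.1 CPM in shCtrl and 77.3, 76.2 and 100.03 CPM in shTFAM (0.16, SE 0.137, edgeR adjusted p 0.433), and only shTFAM 3 exceeded all controls. Its accessory subunit POLG2, which holds the enzyme on DNA, stood at 29.3, 27.1 and 25.7 CPM against 23.6, 17.7 and 15.0 CPM (-0.54, edgeR adjusted p 0.0804), lowest in that same library. Of POLG, 7.66% of exonic bases lie opposite FANCI, a more abundant gene that rose (0.34, edgeR adjusted p 0.0432).

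At the replication fork, the single-strand binding protein SSBP1, the most abundant of the group at 14.1 FPKM, stood at 82.0, 87.4 and 111 CPM in shCtrl and 73.9, 72.8 and 71.0 CPM in shTFAM (-0.36, edgeR adjusted p 0.0932). The 3 shTFAM values were nearly equal and the control spread came from shCtrl 3. RNASEH1, which removes RNA primers, stood at 79.0, 84.4 and 97.6 CPM against 70.4, 71.4 and 59.8 CPM (-0.37, edgeR adjusted p 0.0765). The helicase TWNK was the most variable member, at 15.4, 32.8 and 21.6 CPM in shCtrl and 53.2, 14.4 and 27.9 CPM in shTFAM (0.45, SE 0.474, edgeR adjusted p 0.544); without shTFAM 1 its value turned to -0.16. DNA2, a nuclease and helicase shared with the nucleus, was the single member with every shTFAM library above every control, at 26.2 to 29.9 and 31.6 to 35.1 CPM (0.25, edgeR adjusted p 0.155). MGME1 (-0.14), which trims free ends, and PRIMPOL (-0.35), which restarts stalled forks, were not called. Of PRIMPOL, 12.2% of exonic bases lie opposite CENPU, which had more counts and was not called (-0.07). A p that misses the threshold does not show that a member was unchanged, here or for the other uncalled members.

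ATAD3A and ATAD3B encode inner-membrane ATPases tied to the organisation of mtDNA. ATAD3A stood at 48.1, 46.8 and 67.6 CPM in shCtrl and 42.0, 39.6 and 32.6 CPM in shTFAM (-0.51, edgeR adjusted p 0.0872). ATAD3B stood at 38.7, 38.7 and 59.6 CPM against 32.4, 26.9 and 25.4 CPM (-0.69, edgeR adjusted p 0.0528). Both were highest in shCtrl 3 and lowest in shTFAM 3. They are neighbours and near copies: 17.5% of the 100-base stretches of the longest ATAD3A transcript and 17.3% of those of ATAD3B occur in another gene, so the counts of the pair are uncertain.

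Among the 4 genes of nucleotide supply, DGUOK fell and TK2, the other mitochondrial deoxynucleoside kinase, did not. DGUOK (chromosome 2, 73926826 to 73958961, plus strand), which phosphorylates purine deoxynucleosides and was the most abundant of the 4 at 16.9 FPKM, stood at 34.4, 32.2 and 34.4 CPM in shCtrl and 28.2, 22.9 and 22.3 CPM in shTFAM (-0.46, SE 0.126, edgeR adjusted p 0.0466). Among fits with 1 library left out (0.0338 to 0.135) it stayed called only without shTFAM 1, and its call ended with no expression filter or with edgeR's own. TK2, which phosphorylates pyrimidine deoxynucleosides, stood at 16.8 ± 3.45 and 17.6 ± 1.33 CPM (SD, n = 3 each; 0.06, edgeR adjusted p 0.834), and its sign changed with scaling. RRM2B, the ribonucleotide reductase subunit of non-dividing cells, stood at 29.001, 26.1 and 28.1 CPM against 23.8, 22.2 and 20.8 CPM (-0.32, edgeR adjusted p 0.0956). MPV17, an inner-membrane protein whose loss depletes mtDNA, was not called (-0.18).

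In RNA processing all 9 genes were lower in each shTFAM library than in any control, against 20.1% of all tested rows. Of these 9 genes 3 fell, against 6.59% of all tested rows, and the median log2 fold change was -0.45. Some gaps were narrow, as for ELAC2, with 179 CPM in the lowest control and 176 CPM in the highest shTFAM library. LRPPRC (chromosome 2, 43886224 to 43995989, minus strand), which protects mitochondrial mRNAs, stood at 575, 559.5 and 629 CPM in shCtrl and 446, 459 and 434 CPM in shTFAM (-0.40, SE 0.0887, edgeR adjusted p 0.0254). Its partner SLIRP (chromosome 14, 77708071 to 77760952, plus strand) stood at 59.9, 54.8 and 77.6 CPM against 40.3, 39.3 and 35.8 CPM (-0.74, SE 0.148, edgeR adjusted p 0.0186). SUPV3L1 (chromosome 10, 69180234 to 69209093, plus strand), the helicase of the RNA-degrading complex, stood at 70.6, 74.0 and 81.2 CPM against 51.1, 47.8 and 42.4 CPM (-0.68, SE 0.112, edgeR adjusted p 0.00984). None of the 3 pairs of groups overlapped, and LRPPRC varied least among the shTFAM libraries. The SUPV3L1 call held without each single library (0.0209 to 0.0385), that of SLIRP ended without shTFAM 2 or shTFAM 3 (0.0221 to 0.0605) and LRPPRC stayed called only without shCtrl 3 (0.0365 to 0.0679). SLIRP has 4.49% of its exonic bases opposite SNW1, which was not called (-0.11).

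The exonuclease PNPT1, which works with SUPV3L1, stood at 49.0, 49.3 and 63.4 CPM in shCtrl and 37.9, 42.0 and 33.3 CPM in shTFAM (-0.52, SE 0.146, edgeR adjusted p 0.0506), just outside the threshold. The poly(A) polymerase MTPAP stood at 15.7, 13.96 and 16.6 CPM against 10.9, 12.2 and 10.9 CPM (-0.45, edgeR adjusted p 0.0674). Of the enzymes that cut tRNAs out of the long transcripts, TRMT10C of mitochondrial RNase P stood at 41.2, 41.5 and 61.4 CPM against 32.9, 36.1 and 27.2 CPM (-0.58, edgeR adjusted p 0.0765). Its partner HSD17B10, also an enzyme of isoleucine breakdown, stood at 93.5, 93.8 and 115 CPM against 89.7, 82.0 and 84.7 CPM (-0.24, edgeR adjusted p 0.181). ELAC2, which cuts on the other side of the tRNA (-0.29), and GRSF1 of the RNA granules (-0.18) were not called. PNPT1 and TRMT10C were each highest in shCtrl 3 and lowest in shTFAM 3.

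In the FASTK family of RNA-binding proteins, which mature and stabilise individual mitochondrial transcripts, FASTKD3 fell and TBRG4 had a positive value (median -0.33). FASTKD3 (chromosome 5, 7859159 to 7869032, minus strand) stood at 24.7, 28.5 and 31.4 CPM in shCtrl and 19.1, 18.3 and 19.8 CPM in shTFAM (-0.57, SE 0.128, edgeR adjusted p 0.0268). With 1 library left out it stayed called only without shCtrl 1 (0.0395 to 0.0853), and 3.5% of its exonic bases lie opposite MTRR, which also fell (-0.62, edgeR adjusted p 0.0152). FASTKD1 stood at 48.4, 48.8 and 60.3 CPM against 34.0, 43.0 and 34.7 CPM (-0.50, edgeR adjusted p 0.0526). FASTKD5, needed for cuts where no tRNA marks the border, stood at 26.6, 27.5 and 37.1 CPM against 22.4, 22.5 and 21.7 CPM (-0.45, edgeR adjusted p 0.0812). In both, shCtrl 3 was the highest control and the groups did not overlap. TBRG4, also named FASTKD4 and the most abundant of the family at 15.8 FPKM, stood at 104, 101 and 107 CPM against 103, 114 and 126 CPM (0.14, edgeR adjusted p 0.373). FASTKD2 (-0.20) and the founding member FASTK (-0.07) overlapped between the groups and were not called.

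**Figure D3:**
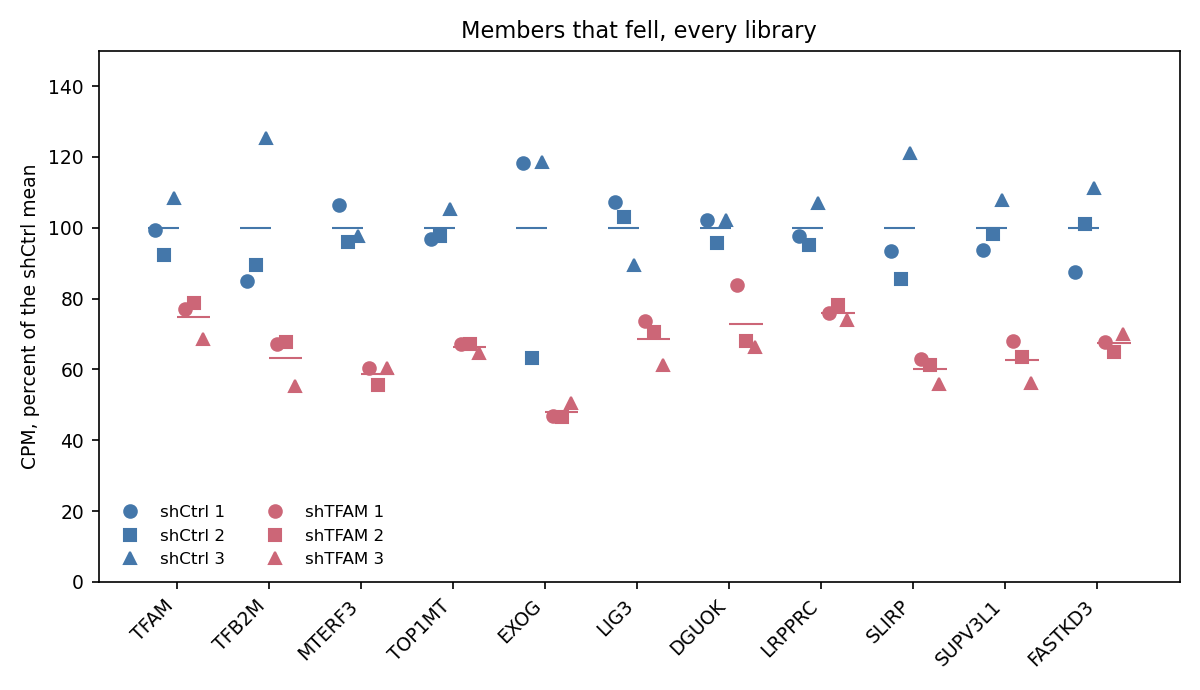
CPM of the 11 fallen members in each library as a percent of the gene's shCtrl mean, with shCtrl libraries in blue, shTFAM libraries in red, and short lines at the group means. In all 11 each red point lies below each blue one, and for EXOG shCtrl 2 (5.32 CPM) lies far under the other controls.

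The stability of the 11 calls over left-out libraries divided the members. MTERF3, TOP1MT and SUPV3L1 were called in all 6 fits with 1 library left out, TFAM and TFB2M in none. The 6 such fits test with fewer samples and called 1148 to 2065 rows in place of 2630. The log2 fold changes of all 11 stayed negative, which was all but fixed beforehand because their groups did not overlap.

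**Figure D4:**
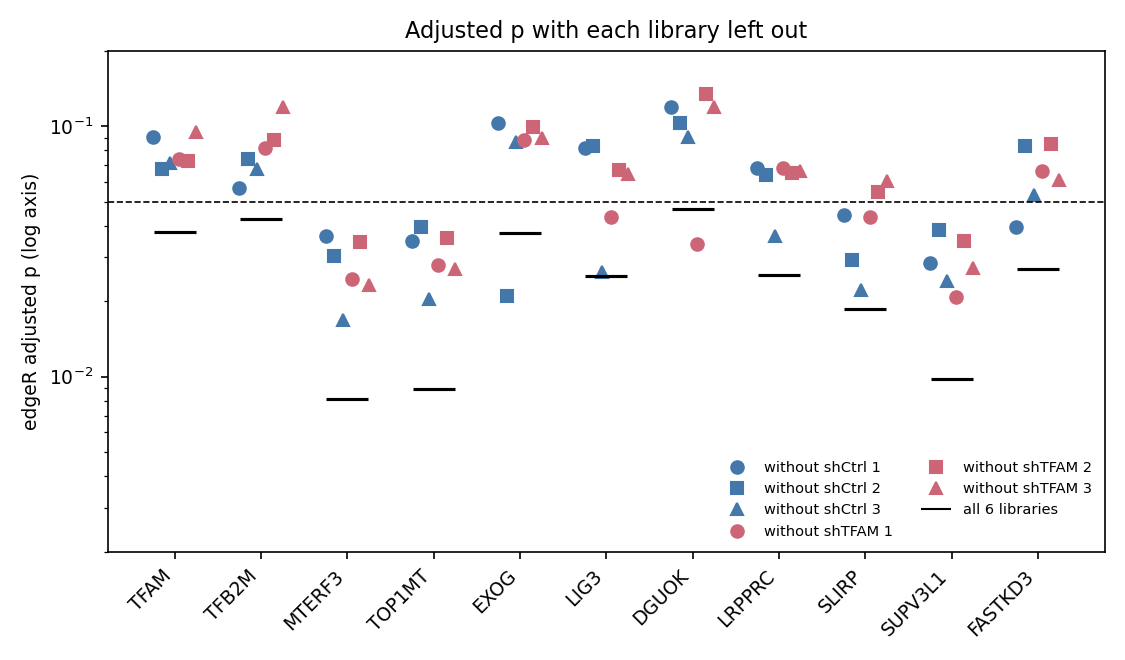
EdgeR adjusted p (log axis) of the 11 fallen members with all 6 libraries (black bars) and with each single library left out (points), with the threshold of 0.05 as a dashed line. MTERF3, TOP1MT and SUPV3L1 stay under the line in every fit, and TFAM and TFB2M rise above it in each.

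Levels of partners in a complex or step were compared as ratios, and no pair was shown to differ in its change. For 9 pairs the log2 ratio of their CPM was taken in each library and compared by a two-sided exact permutation test, whose smallest possible p with 3 against 3 is 0.1, so none could pass. The LRPPRC to SLIRP ratio of FPKM went from 2.43 in shCtrl to 3.05 in shTFAM, and its log2 ratio was higher in every shTFAM library by 0.33 on average (exact permutation p 0.1, adjusted over 9 pairs 0.129). POLG to POLG2 went from an FPKM ratio of 1.63 to 2.69 (log2 difference 0.72) and TFB1M to TFB2M from 0.1201 to 0.177 (0.56). TFAM to POLRMT went from 1.24 to 0.931 (-0.41), TFB2M to POLRMT from 1.98 to 1.28 (-0.63) and TRMT10C to HSD17B10 from 0.278 to 0.220 (-0.33). These 5 pairs likewise did not overlap between the groups, nor did ATAD3A to ATAD3B (0.17), each with an exact permutation p of 0.1, adjusted 0.129. PNPT1 to SUPV3L1 (0.17) and TWNK to SSBP1 (0.67) overlapped (exact permutation p 0.2, adjusted 0.2).

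**Figure D5:**
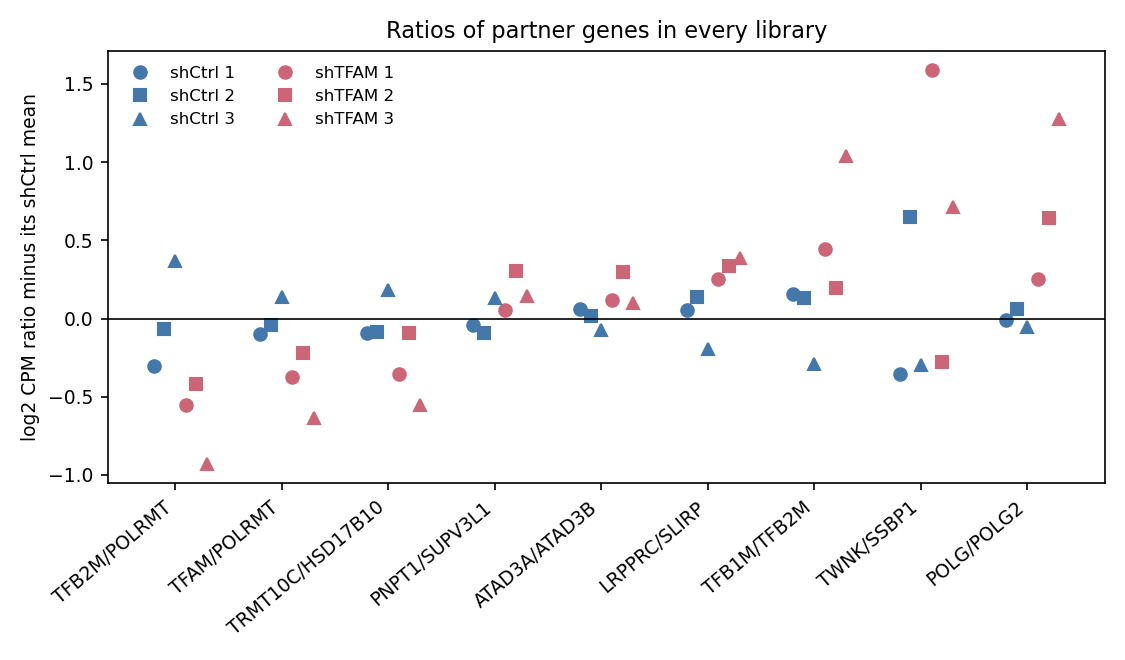
Log2 ratio of the CPM of 9 gene pairs in each library, less the mean of the shCtrl libraries for that pair. The POLG to POLG2 ratio lies above all controls in the 3 shTFAM libraries and the TFB2M to POLRMT ratio below them, while TWNK to SSBP1 is spread over both groups.

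Transcripts of mtDNA itself overlapped between the groups in their share of the library: rows on mtDNA took 13.5, 14.2 and 10.1% of counts in shCtrl and 8.65, 10.7 and 7.91% in shTFAM, so shTFAM 2 exceeded shCtrl 3. Of their 13 mRNAs, 3 fell, against 6.59% of all rows, and 13 had negative values (median -0.53), against 51.4%. All 3 shTFAM libraries lay below all controls for 5 of the 13, against 20.1% of rows. The groups overlapped for 8, and for 8499 of all 14708 rows. The fallen ones were MT-ND3 (-0.90, edgeR adjusted p 0.0124), MT-CYB (-0.63, edgeR adjusted p 0.0311) and MT-CO3 (-0.70, edgeR adjusted p 0.0378). The library shCtrl 3 had the lowest share of mtDNA counts among controls although it had the highest level of most members.

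Other genes of the same processes were counted from lists drawn up by function, and their counts are to be read against the 6.59% of all tested rows that fell and the 11.3% that rose. With so few calls per list, nothing particular to a list is read from them. Of 22 genes of mitochondrial RNA modification and tRNA maturation, 2 fell and none rose (median -0.32): the pseudouridine synthases RPUSD3, from 78.9 to 57.9 CPM (-0.45, edgeR adjusted p 0.0380), and RPUSD4, from 32.1 to 22.8 CPM (-0.49, edgeR adjusted p 0.0372). Of 13 further genes of RNA binding, turnover and surveillance, 3 fell and the median was -0.35. All 13 had negative values, against 51.4% of all tested rows. The 3 fallen genes are named next. They were DDX28 (-0.61, edgeR adjusted p 0.0247), a helicase of mitochondrial ribosome assembly, NGRN (-0.46, edgeR adjusted p 0.0309), which acts on the large ribosomal rRNA, and PTCD1 (-0.40, edgeR adjusted p 0.0382), a pentatricopeptide protein.

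Further genes of mtDNA maintenance showed no common direction. Of 27 tested genes of repair, nucleoid and nucleotide handling, 3 fell and none rose, against 6.59% and 11.3% of all rows. Among these genes 14 values were negative and 13 positive, and the median was -0.05. The fallen genes were the prohibitin PHB2, from 367 to 254 CPM (-0.53, edgeR adjusted p 0.0136), the uracil glycosylase UNG (-0.42, edgeR adjusted p 0.0322) and the pyrimidine nucleotide carrier SLC25A33 (-0.62, edgeR adjusted p 0.0475). The protease LONP1, which degrades TFAM protein, was not called (0.36, edgeR adjusted p 0.302).

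Of 12 transcriptional regulators of mitochondrial biogenesis, 2 fell and 1 rose (median -0.10), against 6.59% and 11.3% of all rows. NRF1 itself was not called, at 21.2 and 22.1 CPM (0.06, edgeR adjusted p 0.770), and the ETS subunit GABPA stood at 52.0 and 67.7 CPM (0.38, edgeR adjusted p 0.0666). YY1, also not called, stood at 185 and 257 CPM (0.47, edgeR adjusted p 0.0616). PPRC1, a coactivator of NRF1, fell from 118 to 88.6 CPM (-0.41, edgeR adjusted p 0.0271), and GABPB2, a partner of GABPA, fell from 27.0 to 18.7 CPM (-0.53, edgeR adjusted p 0.0244). GABPB1, the other GABPB subunit listed, was not called, at 21.0 and 19.3 CPM (-0.12, edgeR adjusted p 0.564). TFE3, a factor of lysosome and mitochondrial gene control, rose from 80.1 to 114.7 CPM (0.52, edgeR adjusted p 0.0391). The coactivators PPARGC1A (-0.16) and PPARGC1B (-0.58, edgeR adjusted p 0.136), MYC (-0.07) and ESRRA (0.01) were not called.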

How the data were processed

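Poly(A) RNA was made into strand-marked paired-end libraries, per the labels' protocols. Tools listed, without roles, in the submitters' processing notes are StringTie 1.3.4d, HISAT2 2.0.4, cutadapt 1.9 and Bowtie 0.12.2, with builds hg38 and mm8. The authors deposited raw counts and FPKM per gene for all 6 libraries, per the file headers; the counting tool, annotation and strand setting are not given in the sources used here. Rows are human; gene bounds equalled GENCODE 29 (GRCh38) for 10 members and differed by at most 3363 bases for the others, and are given as hg38.

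The 14708 rows averaging 0.5 FPKM or more were tested on the deposited counts with edgeR 4.0.16 in R 4.3.3: TMM scaling, trended dispersions, quasi-likelihood F test, two-sided, Benjamini-Hochberg over all tested rows, threshold 0.05. SE is the log2 fold change over the root of F. The test was checked on simulated data, where it missed most of the log2 changes set at 0.5 and at 1. Replicates differed beyond sampling noise (lowest chi-square per degree of freedom 42.6). Alternatives used DESeq2 1.42.0, limma 3.58.1, other filters and scalings, and left-out libraries. Figures used matplotlib 3.10.9. The members and lists were chosen with earlier results of these data known, so they are described by counts and medians with no list test. Values in each library are given for TFAM, called members, those with adjusted p from 0.05 to 0.1 and the most abundant of each role; a few others were added after their values were seen. From lists, called genes are named, at most 4 by smallest p. To these NRF1, GABPA, GABPB1, YY1, LONP1, PPARGC1A, PPARGC1B, MYC and ESRRA were added. Shared sequence was searched as 100-base stretches in GENCODE 29 transcripts, and 35 members had none.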

Additional observations from a re-analysis of the deposited data

How the results depend on the processing

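Over 17 alternatives, the 11 fallen members kept a negative log2 fold change, which left-out libraries could hardly turn since the groups did not overlap. MTERF3, TOP1MT and SUPV3L1 kept their calls in each alternative that tested them. TOP1MT was not tested with rows of at least 5 FPKM. Without a filter 7 members (17.1%) fell, against 2.29% of all rows lower in that fit. The count was 20 (48.8%) with DESeq2, against 11.4% of rows, and 22 (53.7%) with scaling to counts outside mtDNA, against 12.0%. With shCtrl 3 and shTFAM 3 both left out it was 6 (14.6%), against 4.57%. With single libraries left out it was 3 to 7 (7.32 to 17.1%), against 2.07 to 4.98% of rows. None rose in any of them. Single left-out libraries gave 1148 to 1752 called rows, or 2065 without shCtrl 3. The members' median was -0.50 with scaling outside mtDNA, where the median of all rows moved to -0.15, and -0.26 with shCtrl 3 and shTFAM 3 left out. Called rows went from 1661 higher and 969 lower to 1198 and 1771 with scaling outside mtDNA, 1353 and 1266 with library totals, and 1278 and 1337 with limma on log2(FPKM + 1). TFAM lost its call without a filter (-0.42, edgeR adjusted p 0.0644), with shCtrl 3 and shTFAM 3 left out (-0.30) and without each single library (-0.48 to -0.36). Signs turned in 13 of 682 values, all uncalled: TK2 was -0.0020 with limma on log2(FPKM + 1), -0.0071 with library totals, -0.068 outside mtDNA, -0.10 without shCtrl 3, -0.010 without shTFAM 1 and -0.052 with both left out. Without shCtrl 1, POLRMT was 0.026 and MTERF4 0.12; without shTFAM 1, TWNK was -0.16; without shTFAM 2, POLRMT was 0.047, TFB1M 0.058 and FASTK 0.0079. POLG was -0.042 with both left out. With single libraries left out, POLRMT ranged from -0.062 to 0.047, TFB1M from -0.22 to 0.058, MTERF4 from -0.43 to 0.12, TWNK from -0.16 to 0.80 and TK2 from -0.10 to 0.15. Calls also ended without a filter for TFB2M (edgeR adjusted p 0.0662), EXOG (0.0552) and DGUOK (0.0854), and with edgeR's filterByExpr for TFB2M (0.0505) and DGUOK (0.0592). EXOG, at under 1 FPKM, was not called by limma on log2(FPKM + 1) (-0.52, adjusted p 0.0610), log2(FPKM + 0.1) (-0.99, 0.0574) or quantile-normalized values (-0.47, 0.0822). None of 63 partner ratio differences changed sign. For the pairs whose groups did not overlap, leaving out a library could not have turned it. No paired analysis was possible because the labels share no replicate numbers across groups. The lowest member count in any library was 176 (EXOG, shTFAM 2).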
